A study of Homo sapiens with 12 samples.

Results

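BT549 is an established human breast cancer cell line of the triple-negative kind, a clinical label for tumours that lack oestrogen receptor, progesterone receptor and amplified HER2. Its baseline transcriptome was read here from the 3 libraries of cells that carried a pool of non-targeting siRNAs and had received the solvent DMSO for 48 h, out of 12 libraries in 4 groups of 3. The other groups, not used here, carried siRNA pools against FOSL1 and JUN, received the PARP inhibitor olaparib, or both. All cells grew in RPMI medium with 10% fetal bovine serum. The control cells are therefore transfected and solvent-treated cells of a single line, not untouched ones, and the labels do not say that the 3 libraries came from separate cultures, so the spread between them may be technical. Genes were taken from 46 lists of lineage, receptor, transcription factor, matrix, DNA repair, cell cycle and tumour genes and of other cell types. The lists held 983 distinct genes of the table and were chosen with earlier results of these data known. Their shares therefore describe the lists and are no test. Each gene was given its level without any comparison between groups.

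Breast epithelium has an inner luminal layer, whose cells carry keratins 8, 18 and 19 and often the hormone receptors, and an outer basal layer with keratins 5 and 14. Epithelial cells hold together through E-cadherin and claudins, and lose these when transcription factors of the ZEB, SNAI and TWIST families switch on the mesenchymal programme of vimentin, N-cadherin and fibronectin. BT549 is known as a mesenchymal, claudin-low line that lacks the RB1 protein. It is used to study PARP inhibitors, which trap PARP enzymes on broken DNA and are most toxic to cells that cannot repair breaks by homologous recombination.

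Levels are given as RPKM, a gene's count per 1000 bases of its length and per 1e+06 counts of its library, so that genes of different length can be set beside each other. The libraries held 14320335, 16815526 and 16823795 counts. A gene was called detected when it had at least 1 RPKM in each library, which for a gene of median length, 3073 bases, is 44 to 51.7 counts. Of 19021 protein-coding genes, 10083 (53%) were detected, 27.6% had at least 10 RPKM, 3.37% at least 100 RPKM and 0.273% at least 1000 RPKM in each library. No count in any library was found for 4680 protein-coding genes (24.6%). Over all 26995 rows with a symbol, which include noncoding genes, the shares were 39.2% detected, 2.41% with at least 100 RPKM and 37.1% with no count. The median detected protein-coding gene stood at 11.3 RPKM, and the middle of their range, between the lowest and the highest decile, ran from 2.37 to 68.8 RPKM. Lists were read against these shares, and no test was made. The libraries ranked the detected genes alike, with Spearman correlations of 0.995 to 0.996 across genes, which are not independent replicates. The median coefficient of variation between libraries was 6.71% for genes of 1 to 10 RPKM and 4.17% for genes of 10 to 100 RPKM. Counting error alone would give 6.05% and 2.94%. Throughout, a gene is said to stand above another only where their values in the 3 libraries do not overlap.

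Some genes without counts are ones that no cell does without, which bears on every statement of absence. Of 303 protein-coding genes for ribosomes, proteasomes, splicing and other machinery that every cell uses, 287 (94.7%) were detected, with a median of 84.0 RPKM. The other 16 were not, and 10 of those had no count at all, among them PRPF8 of the spliceosome and PSMB3 of the proteasome. Each of these 16 genes was taken with the run of adjoining genes below 1 RPKM around it. These runs held from 2 protein-coding genes, at RPL36A, to 99. Any gene below 1 RPKM lies in such a run, if only of itself, so the short ones say little. Genes whose deposited length was over 1.2 times their length in the GENCODE annotation were also rarely detected, at 17.6% of 1130 genes against 55.4% of 17836 other genes. Together 1176 protein-coding genes lay in such runs or had such a length. They are called uncertain below, and no absence of a single such gene is read. Counts of list members keep them in, so a member counted as not detected may be uncertain. Uncertain genes were 10.9% of the protein-coding genes that were not detected, and 43 of the listed genes, including HRAS, CDK7, TJP1 and CDKN1C. None of the genes on which the lineage picture rests (ESR1, PGR, FOXA1, CDH1, EPCAM, KRT14, VIM) was among them. The check catches only such runs and such lengths, so a gene that passes it may still have lost reads.

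The 300-base promoters of RefSeq (build GRCh38.p14, from 250 bases before a gene's annotated start to 50 after it) could be matched to 15240 of the protein-coding genes, and 920 of these were uncertain and left out. CpG dinucleotides are depleted from most of the genome but kept in CpG islands, where many widely used promoters lie. The median ratio of observed to expected CpG was 0.86 in the promoters of 8246 detected genes, 0.67 in those of 3009 genes with counts that were not detected and 0.30 in those of 3065 genes with no count. A ratio over 0.6, as in CpG islands, was found in 88.2%, 55.6% and 26.2% of them, in the same order. Among detected genes the ratio hardly moved with level. It was 0.85 for genes of 1 to 10 RPKM and 0.87 for genes of 100 RPKM or more. Of the 4 promoters printed, those of ITGB1 and ABCB1 follow this pattern and those of AXL and FOXA1 do not. They were chosen after their values were seen, run 5′ to 3′ on the gene's own strand, and have every CpG in capitals.
ITGB1: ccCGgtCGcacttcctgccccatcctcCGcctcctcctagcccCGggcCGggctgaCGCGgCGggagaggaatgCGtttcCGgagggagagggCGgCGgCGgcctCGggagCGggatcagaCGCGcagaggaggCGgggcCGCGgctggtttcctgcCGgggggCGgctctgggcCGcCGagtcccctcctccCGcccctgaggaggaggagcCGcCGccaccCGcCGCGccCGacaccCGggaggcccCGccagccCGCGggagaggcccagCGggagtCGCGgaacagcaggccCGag
AXL: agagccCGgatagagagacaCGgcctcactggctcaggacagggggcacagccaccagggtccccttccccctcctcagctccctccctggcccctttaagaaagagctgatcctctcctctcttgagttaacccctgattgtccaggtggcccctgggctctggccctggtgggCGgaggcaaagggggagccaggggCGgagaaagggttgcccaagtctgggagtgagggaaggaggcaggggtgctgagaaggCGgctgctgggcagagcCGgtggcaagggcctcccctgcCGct
FOXA1: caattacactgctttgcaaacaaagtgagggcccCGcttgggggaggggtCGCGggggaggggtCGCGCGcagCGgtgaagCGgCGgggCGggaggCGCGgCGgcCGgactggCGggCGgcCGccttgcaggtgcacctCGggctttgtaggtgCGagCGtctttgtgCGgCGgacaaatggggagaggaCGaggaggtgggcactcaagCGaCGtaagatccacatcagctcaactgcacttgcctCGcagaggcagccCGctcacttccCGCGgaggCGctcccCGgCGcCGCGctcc
ABCB1: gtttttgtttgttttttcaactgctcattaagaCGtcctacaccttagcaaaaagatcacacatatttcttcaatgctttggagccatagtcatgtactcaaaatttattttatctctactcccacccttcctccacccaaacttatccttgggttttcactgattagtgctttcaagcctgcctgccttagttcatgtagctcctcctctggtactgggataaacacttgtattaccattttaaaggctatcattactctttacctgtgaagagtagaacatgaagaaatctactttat
The promoter of ITGB1, the main integrin beta chain, lies at chr10:32958181-32958480 on the minus strand and holds 39 CpG, and its gene was read at 625 RPKM. AXL, a receptor tyrosine kinase of mesenchymal cells, has only 7 CpG in its promoter at chr19:41218973-41219272 on the plus strand, yet reached 74.4 RPKM. FOXA1, a luminal transcription factor, has 34 CpG at chr14:37595200-37595499 on the minus strand and not a single count. ABCB1, a drug efflux pump, has 1 CpG at chr7:87713246-87713545 on the minus strand and no count. The start that RefSeq annotates need not be the start these cells use.

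**Figure D1:**
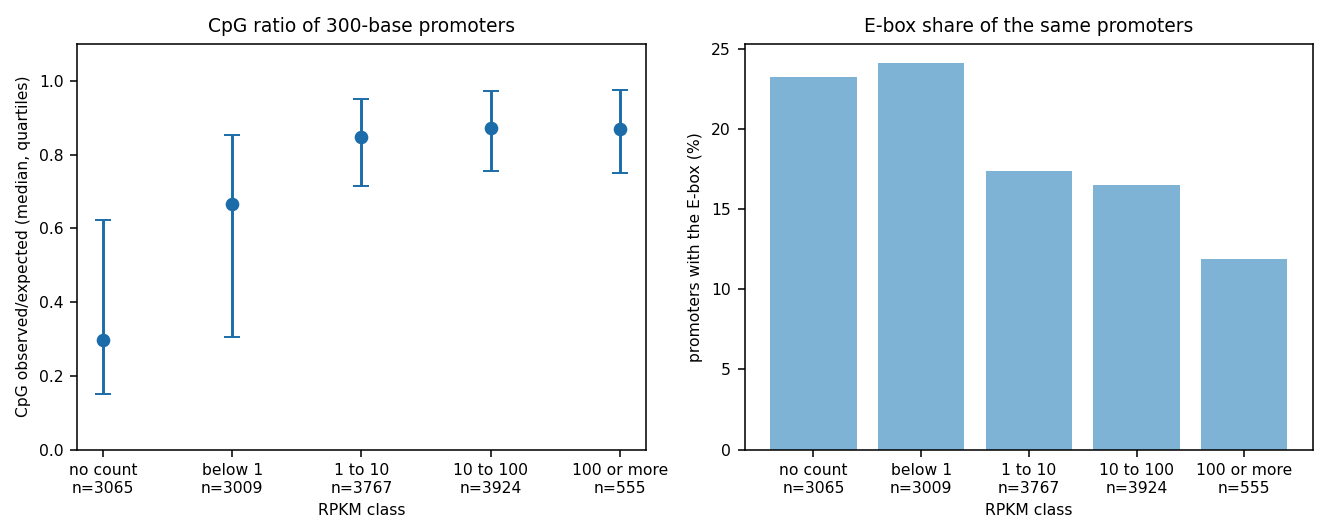
Left, median and quartiles of the observed to expected CpG ratio of 300-base RefSeq promoters in classes of mean RPKM; right, percent of the same promoters that hold the E-box on either strand. The ratio steps up from 0.30 for genes with no count to 0.85 at 1 to 10 RPKM and stays level above that, while the E-box share is 23.3% for genes with no count and 11.9% for genes of 100 RPKM or more.

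The ZEB and SNAI factors bind the E-box CACCTG, which reads CAGGTG on the other strand. It occurred on either strand in 19.7% of all matched promoters, in 16.6% of those of detected genes, in 24.1% of those of genes with counts below the threshold and in 23.3% of those of genes with no count. The median GC content of these last 3 classes was 66.0%, 62.0% and 53.7%, and its part in the difference was not tested. The epithelial junction list held the E-box in 6 of 17 matched promoters and the mesenchymal list in 3 of 19. CDH1 and EPCAM had no matched promoter and are not in these counts. Over all lists so read, the share ran from 0% of 5 fibrillar collagens to 42.9% of 14 luminal genes. A match is a run of letters in this window and says nothing about binding.

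The hormone receptors that define the clinical label were at or near zero. ESR1, the oestrogen receptor, had 1, 1 and 0 counts. PGR, the progesterone receptor, had none in any library, where 3 counts would be 0.0137 to 0.0161 RPKM. Such limits cover counting error only. ERBB2, which encodes HER2, was read at 18.5, 17.9 and 19.4 RPKM. Thus ESR1 and PGR were at the floor of the measurement, and ERBB2 was above the median detected gene.

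The mesenchymal list was the highest of the lineage lists, with 30 of 35 genes detected, against 53% of all protein-coding genes, and a median of 17.8 RPKM over its members. The same median over all protein-coding genes was 1.81 RPKM. VIM, which encodes the intermediate filament vimentin, led it with 1425, 1459 and 1362 RPKM. LOXL2, a collagen crosslinking enzyme, followed at 554, 564 and 575 RPKM. ACTA2, smooth muscle actin, had 240, 292 and 296 RPKM, which overlapped the 208, 260 and 249 RPKM of the matrix protein TGFBI. ACTA2 also belongs to the basal and myoepithelial list. SPARC, a collagen-binding matrix protein, had 164, 199 and 188 RPKM, and THY1, a surface glycoprotein of fibroblasts, 143, 159 and 168 RPKM. These overlapped too. N-cadherin itself was low, as CDH2 had only 5.38, 5.61 and 5.26 RPKM. Of the 5 listed genes that were not detected, FOXC2 and the small proteoglycans DCN and LUM had no count, and COL6A3 and PDGFRB averaged 0.155 and 0.0284 RPKM. BT549 RNA thus held collagen III and V without decorin, lumican or the platelet-derived growth factor receptor beta of fibroblasts.

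Among epithelial junction genes the catenins, which link cadherins of any kind to the cytoskeleton, were all read. CTNNA1 had 126, 126 and 134 RPKM, CTNNB1 99.7, 96.1 and 104 RPKM, and CTNND1 44.5, 45.6 and 47.6 RPKM. The adhesion genes CDH1 and EPCAM were not detected. CDH1, which encodes E-cadherin, had 3, 8 and 7 counts, or 0.0429, 0.0974 and 0.0852 RPKM. EPCAM had no count, where 3 counts would be 0.104 to 0.122 RPKM. Of the 35 genes of the list, 11 were detected (31.4%), against 53% of all protein-coding genes. No count was found for 8 of the 35, a share near the 24.6% of all protein-coding genes. These 8 were EPCAM, CRB3, PKP1, PKP2, GRHL2, OVOL1, OVOL2 and PRSS8. GRHL2, OVOL1 and OVOL2 are transcription factors that hold cells in the epithelial state. ESRP1 and ESRP2, which direct epithelial splicing, averaged 0.0331 and 0.0206 RPKM. Among the claudins, CLDN3, CLDN4 and CLDN7, whose loss names the claudin-low class, averaged 0.110, 0.101 and 0.225 RPKM. Of 24 claudins 2 were detected, against 53% of all protein-coding genes. These were CLDN1 at 24.3, 24.3 and 21.8 RPKM and CLDN12 at 3.70, 3.99 and 3.33 RPKM. CLDN1 made up 81.4 ± 0.79% of all claudin RPKM (SD, n = 3).

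The highest cadherins were CDH3, or P-cadherin, at 61.0, 69.0 and 72.4 RPKM and CDH11, a cadherin of bone and fibroblast cells, at 30.7, 34.3 and 34.4 RPKM. CDH3 stood above CDH11 in every library and above CDH2 by 11.3 to 13.8 times. CDH11 stood above CDH2 by 5.70 to 6.54 times. Thus the most abundant cadherin RNA of this mesenchymal line was that of a cadherin usually listed among basal markers. CDH10 with 6.46, 6.14 and 5.84 RPKM and CDH24 with 2.40, 2.85 and 2.94 RPKM were the other detected members of the 23 in the table, and 9 had no count.

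Keratin RNA was scarce. The 55 keratin genes of the table summed to 54.1 ± 1.06 RPKM, and 5 of them were detected, with 11 of the 55 uncertain. Of all protein-coding genes 53% were detected. KRT80 had 18.4, 15.7 and 16.7 RPKM and KRT18, the luminal partner of KRT8, had 14.6, 16.0 and 15.8 RPKM, so their order differed between libraries. KRT10 had 13.7, 12.4 and 13.6 RPKM. KRT8 was read at only 0.524, 0.630 and 0.709 RPKM and KRT19 at 0.0475, 0.162 and 0.0404 RPKM. KRT18 and KRT8 have many processed copies in the genome, and the rule by which shared reads were counted is not known, so their ratio is uncertain. Of the basal keratins, KRT5 had 0.394, 0.568 and 0.542 RPKM, KRT15 had 4.67, 4.56 and 4.68 RPKM, and KRT14 and KRT16 had no count. VIM was 86.4 to 97.6 times as high as KRT18.

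The markers of neither breast epithelial layer were read as a whole. Of 23 luminal genes 8 were detected (34.8%), led by XBP1, a factor of the secretory pathway, at 49.8, 45.3 and 44.6 RPKM. MUC1, a surface mucin, had 20.5, 21.4 and 24.1 RPKM, MLPH, which moves pigment granules, 17.4, 17.2 and 16.1 RPKM, and GATA3, a luminal transcription factor, 8.28, 7.38 and 8.05 RPKM. FOXA1, PGR, AGR2, TFF1, TFF3 and ANKRD30A had no count. These 6 of 23 are a share near the 24.6% of all protein-coding genes. Of 24 basal and myoepithelial genes 12 were detected (50%), close to the share of all protein-coding genes. CAV1, which forms caveolae, led these with 389, 406 and 389 RPKM. ACTA2, which is counted in the mesenchymal list too, followed at 240, 292 and 296 RPKM. CDH3 with 61.0, 69.0 and 72.4 RPKM overlapped ITGA6, the laminin receptor chain, with 69.0, 66.1 and 64.1 RPKM. TP63, the master factor of basal cells, had only 0.0995, 0.136 and 0.110 RPKM. Among the keratins of this list KRT15 alone was detected, at 4.67, 4.56 and 4.68 RPKM.

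Surface markers used to sort breast stem-like cells gave a mixed picture. CD44, the hyaluronan receptor, had 224, 227 and 225 RPKM. CD24, whose absence together with CD44 is used in that sort, was read at 117, 145 and 131 RPKM, so that CD44 was 1.57 to 1.91 times as high. CD24 has near-identical copies elsewhere in the genome, and its value is uncertain. Of the aldehyde dehydrogenases, ALDH1A3 had 7.74, 7.65 and 7.04 RPKM and ALDH1A1 had no count. The pluripotency factors SOX2 and NANOG had no count, nor had LGR5. In a bulk library, few cells that express a gene and low RNA in all cells cannot be told apart.

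**Figure D2:**
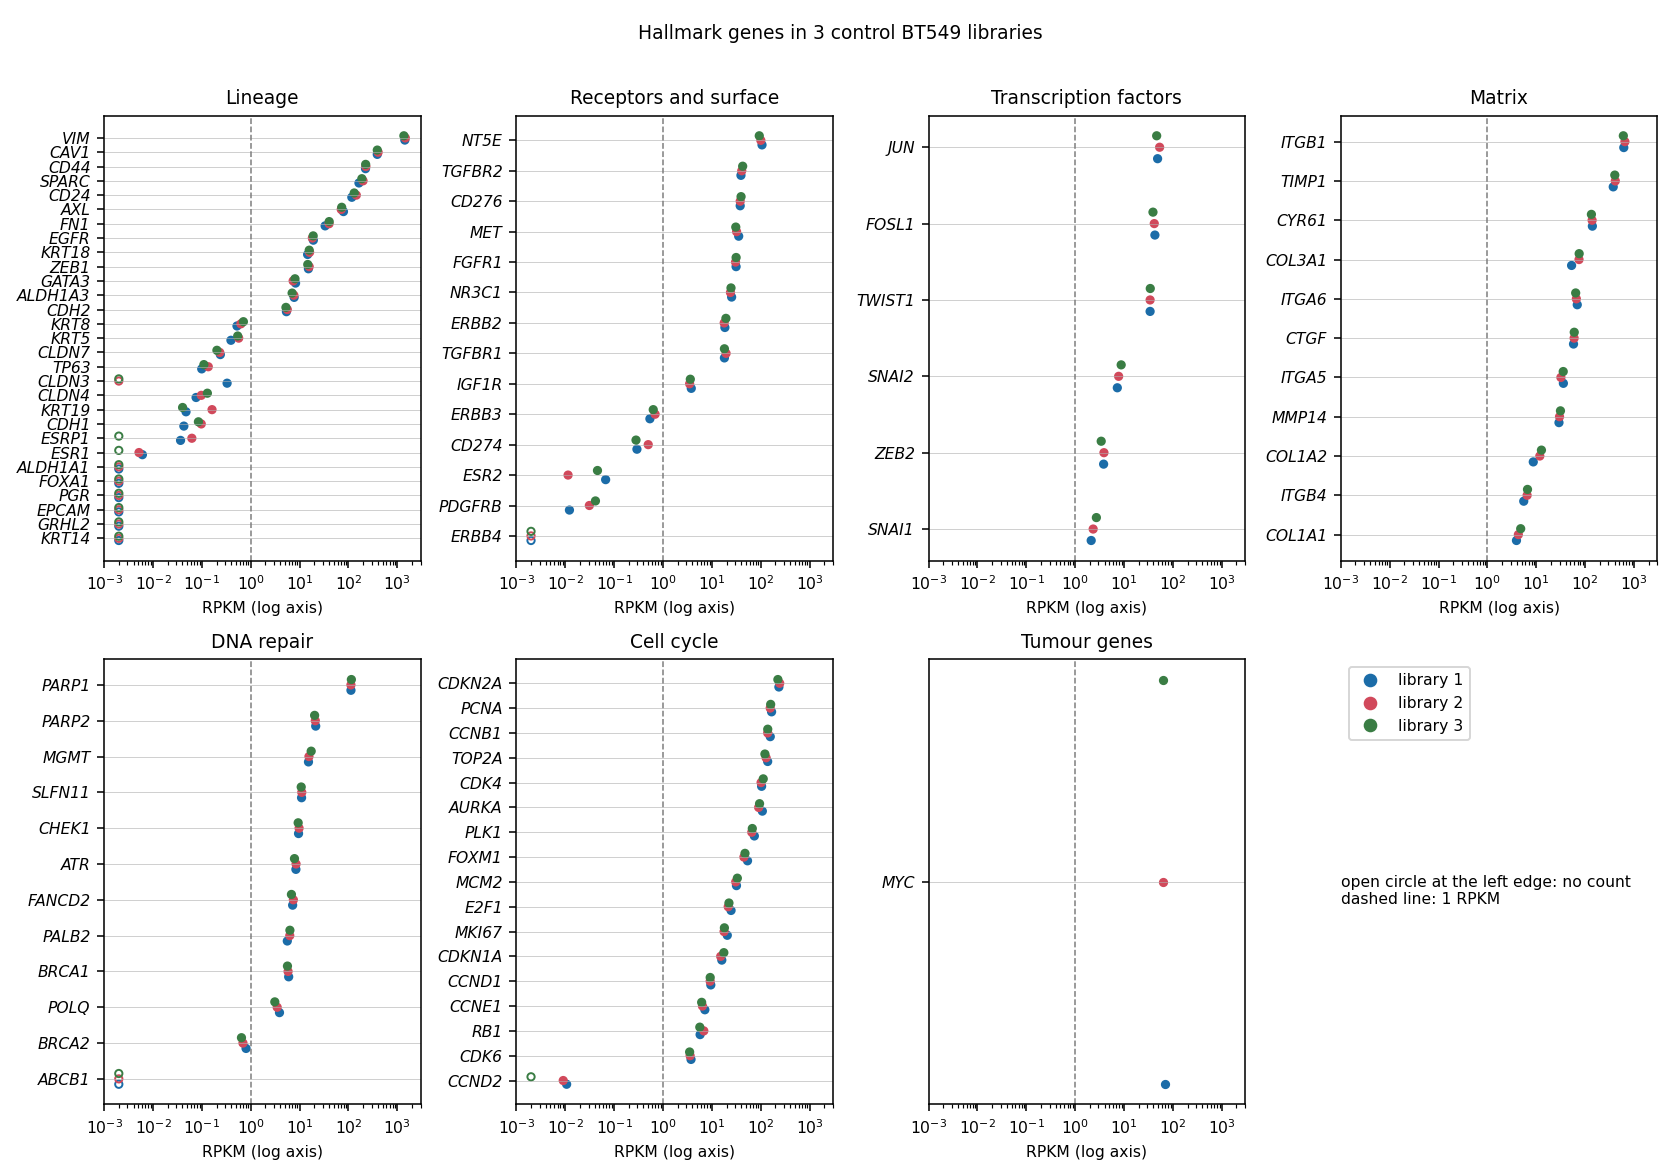
RPKM of 90 hallmark genes, each drawn once, in each of the 3 control libraries, on a log axis, in panels by class, ordered by mean. In the lineage panel VIM lies between 1362 and 1459 RPKM, and every gene from KRT8 down lies below the dashed line at 1 RPKM or has no count (open circles).

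Markers of other cell types were nearly empty. Of 20 haematopoietic markers only CD68, a lysosomal protein, was detected, at 21.5, 20.7 and 20.1 RPKM, and 13 had no count. Endothelial cells had EGFL7 at 14.5, 15.9 and 15.8 RPKM and ROBO4 at 1.04, 1.27 and 1.19 RPKM out of 15 markers, with CDH5, VWF, KDR and FLT1 at no count. Of 9 adipocyte markers only the nuclear receptor PPARG was detected, at 19.7, 19.1 and 19.0 RPKM. Neurons and glia had 3 of 15, which were the synaptic genes SYT1 (5.20, 5.47 and 5.19 RPKM), SYP (4.53, 4.89 and 4.96 RPKM) and SNAP25 (1.84, 2.48 and 2.28 RPKM). Melanocytes had MITF alone, at 2.13, 2.19 and 2.06 RPKM. No hepatocyte or muscle marker was detected. PTPRC of the haematopoietic list, OCA2 and SLC45A2 of the melanocyte list, and FGB and SERPINA1 of the hepatocyte list are uncertain. The summed level of each of these lists was 0.117 to 23.1 RPKM per library.

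**Figure D3:**
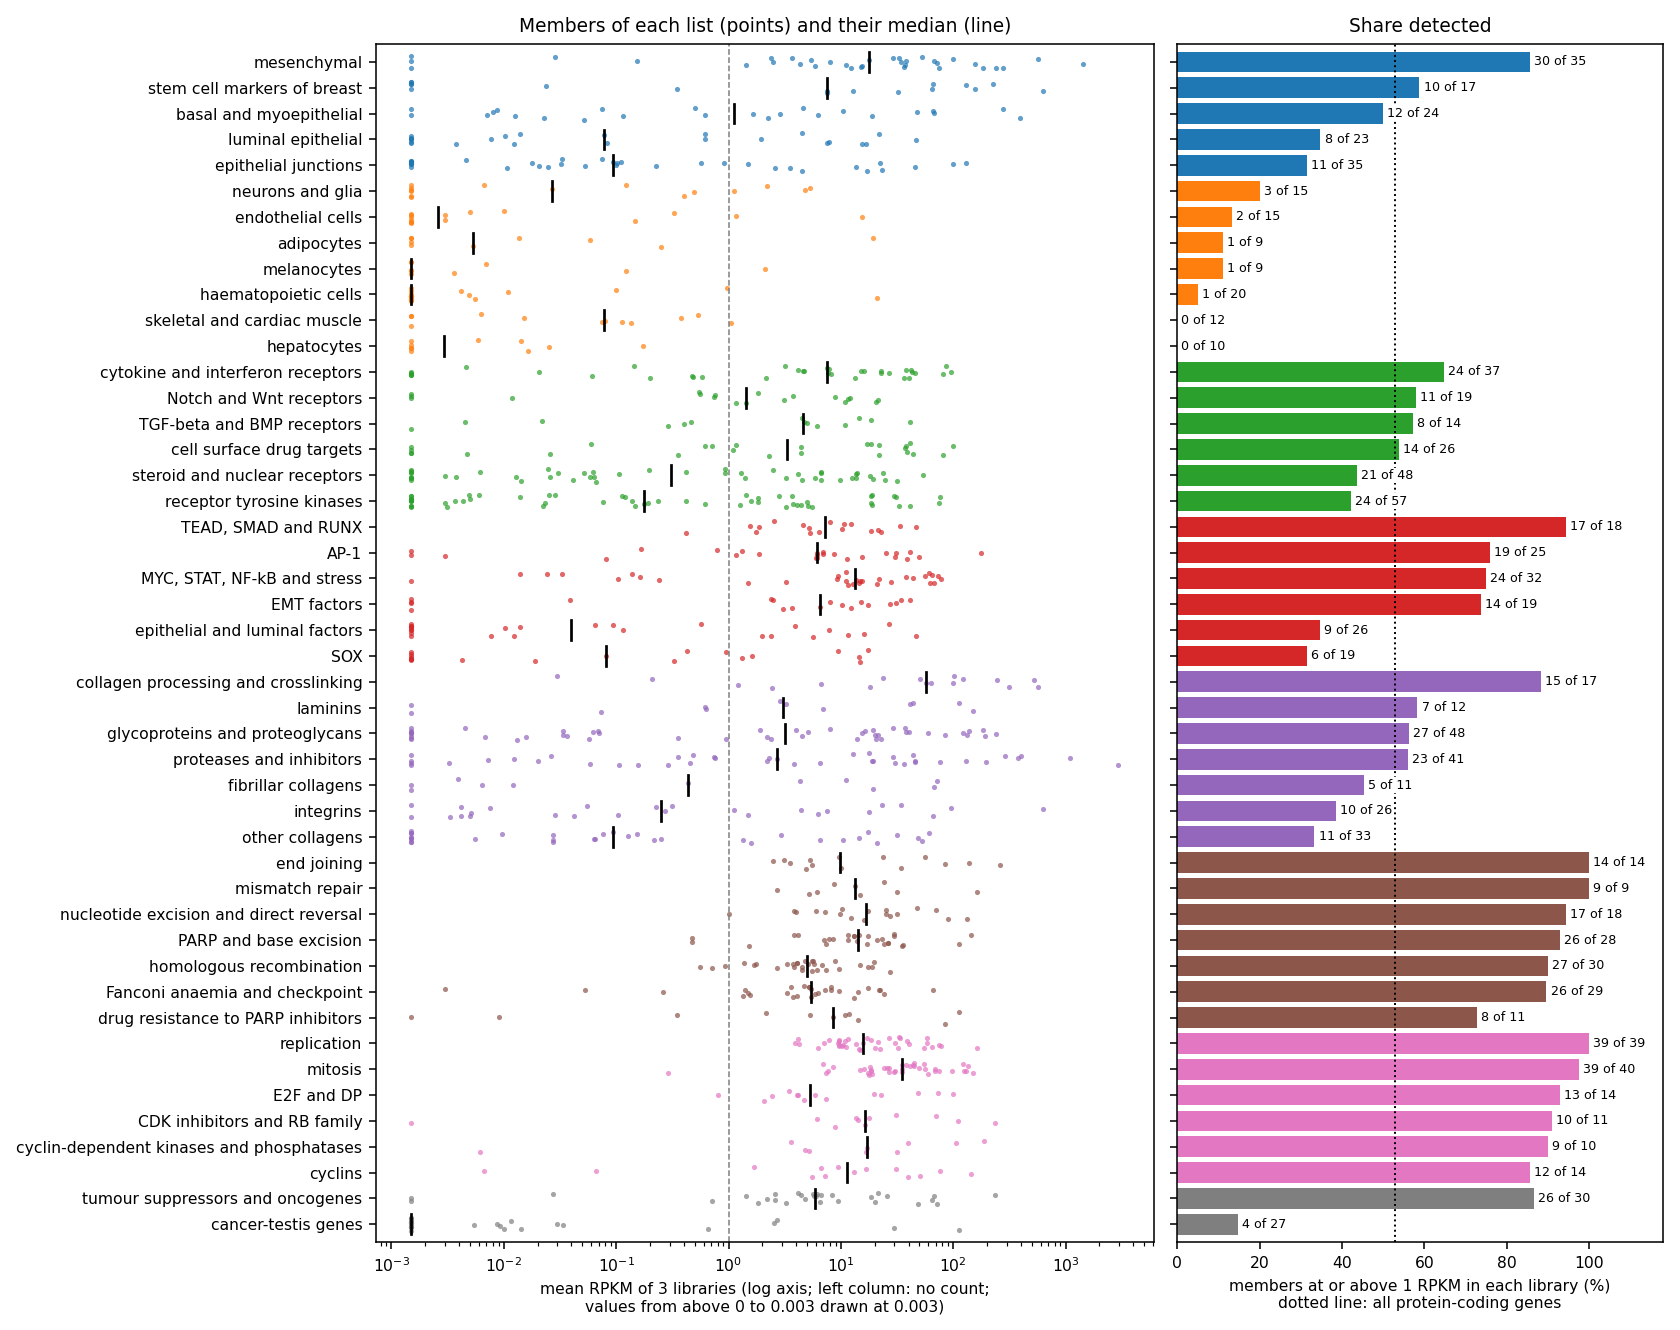
Left, mean RPKM of every member of the 46 gene lists on a log axis with the list median as a black line; right, percent of members detected, with counts, beside the share of all protein-coding genes (53%, dotted line). Repair, replication and mitosis lists lie almost wholly above 1 RPKM, apart from the list of drug resistance to PARP inhibitors at 72.7%. The lists of other cell types lie almost wholly below 1 RPKM.

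Receptor tyrosine kinases were detected in 24 of 57 cases (42.1%), against 53% of all protein-coding genes. The shares of the other lists stand beside the same 53%. EPHA2, an ephrin receptor, had 77.5, 72.2 and 78.6 RPKM, and AXL had 79.1, 71.2 and 72.8 RPKM, which overlapped. PTK7, a co-receptor of Wnt signalling, had 40.0, 40.0 and 42.5 RPKM. MET, the hepatocyte growth factor receptor, had 35.5, 32.1 and 30.9 RPKM and FGFR1 had 31.4, 30.6 and 31.5 RPKM, again overlapping. EGFR had 19.1, 18.3 and 19.0 RPKM, and could not be ordered against ERBB2, with a ratio of 0.977 to 1.03. These receptors made up 49.4 ± 0.75% and 49.0 ± 0.71% of ERBB RNA per length (SD, n = 3). ERBB3, which signals as their partner, had 0.541, 0.691 and 0.633 RPKM and ERBB4 had no count. AXL stood above EGFR by 3.83 to 4.13 times. IGF1R was low at 3.8, 3.52 and 3.63 RPKM, and KIT, RET and FGFR3 lay below 1 RPKM at 0.192, 0.0233 and 0.176 RPKM on average. ALK, FLT1, FLT3, KDR, EPHA1, EPHB1, INSRR, LTK and MUSK had no count. DDR1, a collagen receptor, also had none but is uncertain, while its relative DDR2 had 18.9, 18.2 and 19.1 RPKM. FGFR1 made up 74.4 ± 0.87% of FGF receptor RPKM and EPHA2 66.0 ± 0.70% of Eph receptor RPKM.

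Nuclear receptors were detected in 21 of 48 cases (43.8%), against 53% of all protein-coding genes. The highest was NR2F2, also called COUP-TFII, an orphan receptor of mesenchyme, at 54.2, 53.9 and 52.9 RPKM. NR1H2, the ubiquitous liver X receptor, had 33.2, 28.9 and 32.7 RPKM. NR3C1, the glucocorticoid receptor, had 25.4, 24.1 and 24.7 RPKM, which overlapped the 22.5, 25 and 23.0 RPKM of NR2F1. ESR2 had 0.0672, 0.0115 and 0.0458 RPKM and VDR, the vitamin D receptor, averaged 0.0589 RPKM. No count was found for PGR, RXRG, NR1H4, NR1I2, RORB, HNF4A or NR0B2.

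Both signalling receptors of TGF-beta were read. TGFBR2, which binds the ligand, had 39.5, 41.0 and 42.8 RPKM, and TGFBR1, which it phosphorylates, 18.1, 19.6 and 18.1 RPKM, a ratio of 2.09 to 2.36. ENG, a co-receptor, had 14.9, 14.4 and 14.4 RPKM. In the TGF-beta and BMP list 8 of 14 genes were detected (57.1%), near the 53% of all protein-coding genes. Of 19 Notch and Wnt receptors 11 were detected (57.9%), also near that share. They were led by NOTCH3 at 20.9, 20.5 and 22.5 RPKM and the frizzled receptor FZD6 at 19.7, 21.5 and 19.9 RPKM. NOTCH1 had 1.99, 1.67 and 1.83 RPKM and the receptor LGR5 no count.

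Cytokine receptors were detected in 24 of 37 cases (64.9%), against 53% of all protein-coding genes. TNFRSF1A, the main tumour necrosis factor receptor, had 96.6, 93.3 and 97.9 RPKM. OSMR, the receptor of oncostatin M, had 87.9, 88.7 and 84.4 RPKM, and IL13RA2, a decoy receptor of interleukin 13, had 92.6, 79.8 and 70.3 RPKM. The common chain of the interleukin 6 family, IL6ST, had 14.7, 16.3 and 14 RPKM, whereas IL6R, the binding chain for interleukin 6 itself, averaged 0.585 RPKM. The haematopoietic chains IL2RG, IL10RA, CSF2RA and CSF2RB and the interferon lambda receptor IFNLR1 had no count.

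Among 26 surface proteins that drugs or antibodies are aimed at, 14 were detected (53.8%), near the 53% of all protein-coding genes. NT5E, the ectonucleotidase CD73, had 107, 101 and 93.6 RPKM. CDCP1 had 47.3, 41.1 and 42.7 RPKM and the immune checkpoint molecule CD276 had 38.1, 38.1 and 39.7 RPKM. CD274, which encodes PD-L1, was far lower at 0.294, 0.5 and 0.281 RPKM. NECTIN4, FOLR1 and VTCN1, targets of antibody conjugates, had no count.

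The factors linked to epithelial-mesenchymal transition were detected in 14 of 19 cases (73.7%). TWIST1 had 34.2, 34.2 and 34.4 RPKM. ZEB1, a repressor of E-cadherin, had 15.2, 15.7 and 14.7 RPKM, and ZEB2 only 3.82, 3.88 and 3.41 RPKM, a ratio of 3.97 to 4.31. SNAI2 had 7.29, 7.76 and 8.74 RPKM and SNAI1 was the lowest of these repressors at 2.13, 2.34 and 2.72 RPKM. TWIST1 thus stood above SNAI1 by 12.7 to 16.0 times and above ZEB1 by 2.17 to 2.34 times. FOXC1, a forkhead factor of basal-like tumours, had 27.6, 28.2 and 25.6 RPKM, and its relative FOXC2 had no count, nor had FOXQ1 and GSC. Of 26 epithelial and luminal factors 9 were detected (34.6%). XBP1, TFAP2A at 27.2, 26.9 and 26.1 RPKM and TRPS1 at 15.9, 16.0 and 16.0 RPKM led these, and 9 had no count, including FOXA1, FOXA2, GRHL2, OVOL1, OVOL2 and TFAP2B.

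AP-1 is the dimeric factor formed by JUN and FOS proteins, and FOSL1 and JUN are the genes that the study knocked down in its other arms. All JUN genes and 3 of the 4 FOS genes were detected. JUN was read at 48.6, 53.5 and 46.5 RPKM, FOSL1, which encodes Fra-1, at 42.8, 41.6 and 39.1 RPKM and JUND at 38.6, 41.2 and 35.3 RPKM. JUN stood above FOSL1 by 1.14 to 1.29 times, while FOSL1 and JUND overlapped. JUNB had 31.7, 30.9 and 30.6 RPKM, and FOSL2 averaged 30.6 ± 0.61 RPKM (SD, n = 3). FOS and FOSB were the low ones, FOS at 1.84, 1.85 and 1.96 RPKM and FOSB at 0.784 RPKM on average. FOSL1 and FOSL2 were therefore the FOS partners with abundant RNA in the control cells, and FOSL1 stood above FOSL2 by 1.3 to 1.37 times. ATF4, the factor of the amino acid and stress response, was the highest of the 25 AP-1 and ATF genes at 175, 176 and 180 RPKM, of which 19 were detected (76.0%).

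The list of TEAD, SMAD and RUNX factors, which holds effectors of Hippo and TGF-beta signalling, was nearly all read, 17 of 18 (94.4%). WWTR1, which encodes TAZ, had 44.5, 47.6 and 48.9 RPKM and YAP1 had 21.2, 21.8 and 21.4 RPKM. Of their DNA-binding partners, TEAD2 was highest per length at 31.8, 33.7 and 34.3 RPKM and TEAD1 next at 17.4, 19.0 and 18.7 RPKM. Their classical targets CYR61 and CTGF had 141, 139 and 134 RPKM and 57.8, 59.5 and 59.9 RPKM. In the list of MYC, STAT, NF-kB and stress factors 24 of 32 were detected (75%). HIF1A, the hypoxia factor, had 80.6, 79.2 and 76.0 RPKM, STAT3 had 70.1, 72.7 and 75.2 RPKM, and MYC had 67.9, 63.5 and 63.0 RPKM. MYCN had no count. SOX factors were sparse, with 6 of 19 detected (31.6%) and SOX9 highest at 17.8, 18.1 and 16.8 RPKM.

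HOX genes, which encode a cell's position along the body axis, were read from particular clusters. In HOXB 8 of 10 genes were detected, in HOXC 7 of 9, in HOXA 2 of 11 and in HOXD 0 of 9. The share of all protein-coding genes was 53%. The cluster sums were 66.1 ± 2.27 RPKM for HOXB, 64.5 ± 0.46 RPKM for HOXC, 6.85 ± 1.17 RPKM for HOXA and 0.0672 ± 0.0213 RPKM for HOXD (SD, n = 3). HOXC10 was highest at 29.1, 28.9 and 30.4 RPKM, and made up 45.7 ± 1.09% of its cluster. HOXB6 had 15.2, 16.5 and 16.3 RPKM and HOXB7 14.1, 13.8 and 14.4 RPKM, and HOXB6 stood above HOXB7 in every library. HOXB9, the next gene after HOXB8, was at 0.0517, 0 and 0.0660 RPKM, and yet HOXB13 at the far end had 2.05, 2.33 and 2.33 RPKM. Neighbouring HOX genes share transcripts and exons, and how such reads were divided is not known.

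**Figure D4:**
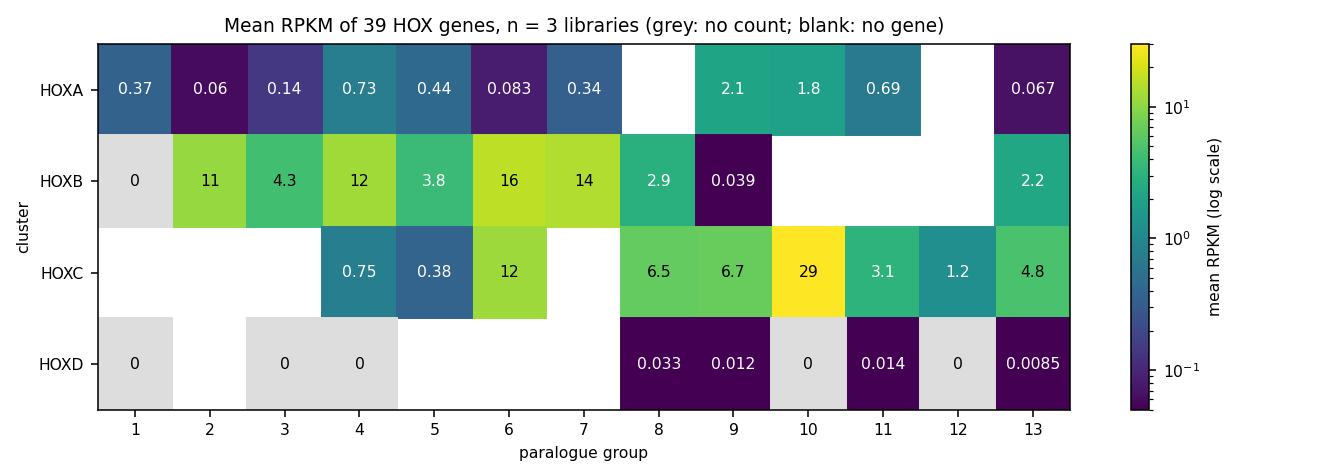
Mean RPKM (n = 3 control libraries) of the 39 HOX genes, with clusters as rows, paralogue groups 1 to 13 as columns and colour on a log scale. HOXB and HOXC carry nearly all HOX RNA, with HOXC10 highest at 29 RPKM, while no HOXD gene has a mean above 0.033 RPKM.

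Single matrix genes stood high while the collagen and integrin lists had low medians. The median was 0.437 RPKM for fibrillar collagens, 0.0938 RPKM for other collagens and 0.25 RPKM for integrins, against 1.81 RPKM for all protein-coding genes. Of the fibrillar collagens 5 of 11 were detected (45.5%). COL5A1 had 61.6, 77.1 and 76.1 RPKM and COL3A1 52.8, 75 and 75.5 RPKM, whereas the chains of collagen I were low, COL1A1 at 3.94, 4.30 and 4.80 RPKM and COL1A2 at 8.69, 11.8 and 12.8 RPKM. COL5A1 stood above COL1A1 by 15.6 to 17.9 times. Of the 33 other collagens 11 were detected (33.3%), with COL15A1 at 50.4, 65.4 and 68.0 RPKM, COL6A1 at 48.6, 56.6 and 52.1 RPKM and the basement membrane chain COL4A5 at 42.0, 51.9 and 52.5 RPKM. COL6A1 and COL6A2 had no COL6A3 partner above the threshold, since that chain averaged 0.155 RPKM. Library 1 was the lowest of the 3 for these genes. The fibrillar collagens summed to 144, 189 and 190 RPKM, and COL3A1, POSTN, TAGLN and THBS3 were among the 15 genes above 10 RPKM with the largest spread between libraries. In the same library the mitosis list was highest, at 1975 RPKM against 1798 and 1763 RPKM. Whether these differences belong together was not tested.

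The enzymes that process collagen were read more fully than the collagens, 15 of 17 (88.2%) with a median of 57.6 RPKM. After LOXL2, P4HB, the shared chain of prolyl hydroxylase, had 510, 531 and 526 RPKM. PLOD1, a lysyl hydroxylase, had 294, 317 and 328 RPKM and SERPINH1, the collagen chaperone HSP47, 227, 253 and 254 RPKM. LOXL2 stood above LOX by 5.45 to 5.88 times.

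Laminins were detected in 7 of 12 cases (58.3%), near the 53% of all protein-coding genes. LAMC1, with 144, 149 and 155 RPKM, and LAMB1, with 110, 115 and 113 RPKM, were the leading chains. The epithelial chains LAMA3 and LAMB3 were low, at 3.18, 3.50 and 3.16 RPKM and at 2.24, 3.06 and 3.36 RPKM. Integrins were detected in 10 of 26 cases (38.5%), and ITGB1 with 618, 652 and 605 RPKM made up 96.1 ± 0.33% of beta chain RPKM (SD, n = 3). Its alpha partners were ITGA3 at 97.6, 90.0 and 96.8 RPKM, ITGA6 at 69.0, 66.1 and 64.1 RPKM and the fibronectin receptor chain ITGA5 at 35.9, 31.9 and 35.6 RPKM. ITGB4, the hemidesmosome chain, was lower at 5.54, 6.5 and 6.62 RPKM, and the leukocyte chains ITGAL and ITGAX had no count.

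Glycoproteins and proteoglycans were detected in 27 of 48 cases (56.2%), led by TGFBI, MFAP2 at 179, 195 and 204 RPKM and SPARC. FN1, fibronectin, had 33.3, 40.1 and 40.4 RPKM. DCN, LUM, FMOD, ACAN, SPP1, EMILIN1 and GPC3 had no count. Of 41 proteases and inhibitors 23 were detected (56.1%). The lysosomal cathepsin CTSL was the highest at 2892, 2999 and 2924 RPKM, the sixth highest of the rows with at least 300 bases, and CTSB had 1105, 1077 and 1093 RPKM. TIMP1, an inhibitor of metalloproteinases, had 376, 414 and 405 RPKM and SERPINE2, an inhibitor of thrombin, 383, 377 and 365 RPKM. PLAU, the urokinase, had 42.4, 45.4 and 44.5 RPKM and its receptor PLAUR 74.6, 75.7 and 77.8 RPKM. MMP2, with 34.2, 37.5 and 38.7 RPKM, and its activator MMP14, with 29.2, 29.9 and 31.3 RPKM, led the metalloproteinases, and MMP7, MMP11 and MMP19 had no count.

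**Figure D5:**
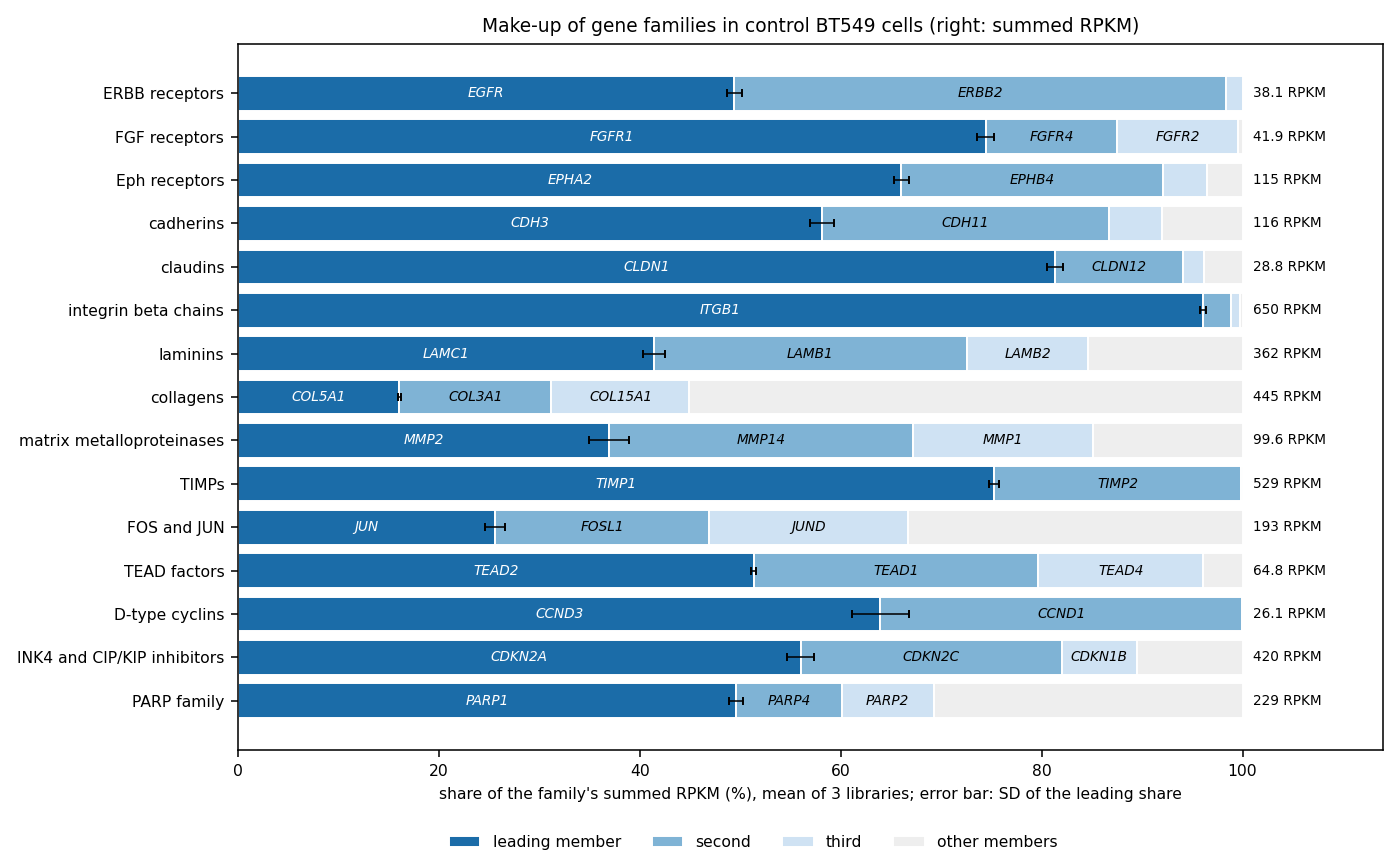
Share of each family's summed RPKM taken by its 3 highest members in control cells (mean of 3 libraries; error bar, SD of the leading share), with the summed RPKM at the right. ITGB1 takes 96.1% of integrin beta chains and CLDN1 81.4% of claudins, while EGFR and ERBB2 share ERBB RNA almost evenly.

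DNA repair genes were read almost completely, at shares of 89.7% to 100% of a list against 53% of all protein-coding genes, though many stood at modest levels. The list of genes tied to PARP inhibitor resistance, which also holds efflux pumps, was lower at 72.7%. PARP1, the main target of olaparib, had 113, 112 and 115 RPKM, and PARP2, its other target, 21.4, 21.0 and 20.3 RPKM, a ratio of 5.26 to 5.65. PARP1 made up 49.6 ± 0.70% of the RPKM of the 16 PARP genes. PARG, which removes the polymer PARP makes, had 8.99, 8.31 and 8.49 RPKM. Of the 28 genes of PARP and base excision 26 were detected (92.9%), led by the endonuclease APEX1 at 140, 140 and 151 RPKM, and XRCC1, the scaffold that PARP1 recruits, had 13.8, 14.7 and 14.8 RPKM.

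Homologous recombination genes were detected in 27 of 30 cases (90.0%) with a median of 4.96 RPKM. BRCA1 had 5.99, 5.82 and 5.65 RPKM and PALB2, which joins it to BRCA2, 5.61, 6.30 and 6.34 RPKM. BRCA2 was under the threshold at 0.803, 0.695 and 0.647 RPKM, and BRCA1 stood above it by 7.45 to 8.73 times. BRCA2 RNA was present all the same, with 131, 133 and 124 counts over 11386 bases, and would be detected at a threshold of 0.5 RPKM. DMC1, the meiotic recombinase, averaged 0.563 RPKM. The highest members were SWI5 at 27.6, 27.3 and 27.8 RPKM, the nuclease MUS81 at 18.1, 20.9 and 20.6 RPKM and the end resection factor RBBP8 at 19.2, 19.3 and 18.0 RPKM.

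End joining genes were all detected, 14 of 14. The Ku subunits stood highest, XRCC6 at 268, 247 and 263 RPKM and XRCC5 at 143, 132 and 136 RPKM, a ratio of 1.88 to 1.93, with the kinase PRKDC at 59.6, 51.4 and 55.5 RPKM. MAD2L2, the shieldin-binding protein, had 85.3, 82.8 and 87.1 RPKM. POLQ, the polymerase of alternative end joining, had 3.88, 3.48 and 3.11 RPKM and TP53BP1, which favours end joining, 14.2, 13.5 and 15.2 RPKM.

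Fanconi anaemia and checkpoint genes were detected in 26 of 29 cases (89.7%), and the 3 others, RAD17, FAN1 and MDC1, are all uncertain. The ubiquitin enzyme UBE2T led with 67.2, 66.8 and 63.7 RPKM, and the checkpoint kinases ATR and CHEK1 had 8.41, 8.48 and 7.87 RPKM and 9.53, 9.77 and 9.36 RPKM. Mismatch repair was complete with 9 of 9, among them MSH6 at 31.8, 32.2 and 30.9 RPKM. Nucleotide excision and direct reversal genes were detected in 17 of 18 cases (94.4%), including the alkyl repair gene MGMT at 15.2, 15.6 and 17.3 RPKM.

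Genes tied to resistance against PARP inhibitors were detected in 8 of 11 cases (72.7%). SLFN11, whose loss goes with resistance, had 11, 11.1 and 10.8 RPKM. The shieldin genes FAM35A and C20orf196 had 11.9, 13.3 and 10.7 RPKM and 2.08, 2.27 and 2.10 RPKM, and the row of C20orf196 is uncertain. The efflux pumps were the silent members: ABCB1, which exports olaparib, had no count, where 3 counts would be 0.0378 to 0.0444 RPKM, and ABCG2 averaged 0.00905 RPKM. ABCC1 averaged 0.350 RPKM and is uncertain.

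Cell cycle genes were the most completely read of all classes. Replication genes were detected in 39 of 39 cases with a median of 15.7 RPKM and mitosis genes in 39 of 40 with a median of 34.9 RPKM, the single exception SPC25 being uncertain. PCNA, the polymerase clamp, had 167, 157 and 160 RPKM, and RRM2, which makes deoxynucleotides, 85.3, 75.1 and 72.2 RPKM. Among mitotic genes the spindle factor TPX2 had 165, 139 and 143 RPKM, the separase inhibitor PTTG1 147, 126 and 135 RPKM and TOP2A, the topoisomerase of condensing chromosomes, 139, 129 and 122 RPKM. MKI67, the proliferation marker of pathology, was lower per length at 20.7, 17.8 and 18.1 RPKM, and TOP2A stood above it by 6.71 to 7.25 times.

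The cyclins were led by CCNB1, the mitotic cyclin, at 157, 139 and 140 RPKM. Of the D cyclins, which start the cycle by activating CDK4 and CDK6, CCND3 was the leading gene at 18.8, 14.4 and 17.1 RPKM and CCND1 had 9.54, 9.26 and 9.27 RPKM, a ratio of 1.55 to 1.97. CCND2 was nearly empty at 0.0107, 0.00912 and 0 RPKM. CCNE1 and CCNE2 overlapped at 7.21, 6.45 and 6.2 RPKM and 6.92, 7.90 and 6.65 RPKM. CDK4 had 105, 102 and 113 RPKM and CDK6 3.76, 3.60 and 3.52 RPKM, so CDK4 stood above it by 27.8 to 32.1 times. CDC25B, the phosphatase that opens mitosis, had 181, 188 and 194 RPKM.

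CDK inhibitors and RB family genes were detected in 10 of 11 cases (90.9%), the exception CDKN1C being uncertain. CDKN2A, whose row covers both p16INK4a and p14ARF, had 236, 245 and 225 RPKM, and CDKN2C, or p18, had 113, 106 and 109 RPKM. CDKN2A made up 56.0 ± 1.38% of INK4 and CIP/KIP RPKM (SD, n = 3). CDKN1B, or p27, had 30.3, 32.0 and 31.0 RPKM and CDKN1A, or p21, 16.0, 15.2 and 17.6 RPKM. RB1, the protein that p16 keeps active, had 5.77, 6.87 and 5.68 RPKM of RNA, and CDKN2A stood 35.7 to 40.9 times above it. RBL2, its relative among the pocket proteins, had 17.4, 19.1 and 16.5 RPKM. Of the E2F list 13 of 14 genes were detected (92.9%), with MYBL2 at 102, 96.0 and 98.1 RPKM, FOXM1 at 53.8, 45.4 and 47.8 RPKM and E2F1 at 24.8, 21.7 and 22.4 RPKM.

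Tumour suppressors and oncogenes were detected in 26 of 30 cases (86.7%). AKT1 had 69.9, 69.3 and 75.1 RPKM and NRAS 49.5, 49.5 and 46.5 RPKM. HRAS had no count but is uncertain. MTAP, the neighbour of CDKN2A that is often lost with it, had 20.9, 22.4 and 20.4 RPKM. TERT, the catalytic part of telomerase, averaged 0.0273 RPKM. Genes of the cancer-testis list were detected in 4 of 27 cases (14.8%), and 14 had no count, of which CTAG1A and PRAME are uncertain. The detected ones were LAGE3 at 112, 113 and 113 RPKM, the mitotic kinase TTK at 32.0, 30.2 and 27.3 RPKM, and MAGEA3 and MAGEA12 at 2.27, 3.10 and 2.65 RPKM and 2.80, 2.39 and 2.36 RPKM. MAGEA genes are near-identical copies, so their split is uncertain. A place in this list does not show that LAGE3 or TTK is confined to testis and tumours, since no other tissue was read here.

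The most abundant RNAs of the table were those of cytoskeleton, ribosome, iron storage and glycolysis. TMSB10, a thymosin that binds actin monomers, led with 8626, 8534 and 9161 RPKM, above ACTB at 5086, 5017 and 5245 RPKM. The ribosomal protein gene RPS6 had 3926, 3860 and 3969 RPKM, ACTG1 had 3591, 3356 and 3601 RPKM and the glycolytic gene GAPDH had 3355, 3034 and 3248 RPKM. Behind CTSL, the 20 highest rows also held LGALS1, galectin 1, at 2304, 2313 and 2565 RPKM, FTH1 and FTL of the iron store ferritin, CALR of the endoplasmic reticulum and TMSB4X. Genes for ribosomal proteins took 6.24% to 6.58% of all counts. Many of these genes have processed copies, so their levels are uncertain. Of 4491 long noncoding RNA rows 304 were detected (6.77%). The highest of at least 300 bases was SLMO2-ATP5E, a read-through of neighbouring genes, at 743, 735 and 772 RPKM. Its row is only 446 bases long. How reads shared with the genes it joins were counted is not known, so its level may include theirs. Host genes of small nucleolar RNAs were among the next, such as SNHG5 at 594, 575 and 596 RPKM and GAS5 at 238, 249 and 257 RPKM.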

How the data were processed

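RNA levels were read in 3 Illumina libraries of control BT549 cells, from 12 in the series. Total RNA was extracted with a column kit, per the labels' protocols, and the submitters' processing notes name bcl2fastq 2.20.0.422 as the base call converter. Aligner, counter, strand use and genome build are not given in the sources used here; how reads shared by genes were treated is thus unknown. The authors deposited raw counts per gene, whole numbers with a length in bases for each of 27046 rows, per the file headers. Of these, 51 rows had no symbol and held 0.00228% to 0.00242% of a library's counts, and they were never named. The authors also deposited log2 RPKM values, per the file headers, which differed from the log2 of the values computed here by at most 0.0245 over 9541 genes with at least 100 counts.

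RPKM was computed from counts, length and library total with Python 3.11.15 and pandas 2.3.3, and TMM factors with edgeR 4.0.16 in R 4.3.3. The common dispersion that edgeR gave for the 3 libraries was 0.00206, or 4.54% as a coefficient of variation. The edgeR step was also run on simulated counts, drawn with a larger dispersion than these libraries gave. Its outcome is not reported here, and no statement rests on it. Pairs of libraries differed by more than counting error (chi-square of 2.76 to 3.92 per gene), so all 3 were counted. Gene names, biotypes and gene order came from RefSeq, matched by Entrez identifier for 26911 rows, and transcript lengths from GENCODE. No coordinates were taken for the counts, since their build is not named.

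Genes were detected at 1 RPKM in each library. The text names hallmark genes, up to 5 of the highest members of a list, those with no count, the leading members of families and the 20 highest rows of at least 300 bases and 10 counts in each library; others were named after their values were seen. The members and lists were chosen with earlier results of these data known, and the check for uncertain rows, its alternative and the printed promoters after seeing the data. Alternatives were TMM scaling, TPM, other thresholds, each library left out and the authors' values. Some listed genes are not reported here.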

Additional observations from a re-analysis of the deposited data

How the results depend on the processing

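No paired analysis was possible because a single group was described and no test was made. The count of detected rows with a symbol, 10588 (39.2% of 26995), ran from 9500 at a threshold of 2 RPKM to 11600 with TPM, the count of rows with no count from 8882 without uncertain rows to 13001 with up to 3 counts allowed in each library, and both stayed within 1.5 times. The count at or above 100 RPKM was 650, and 1621 with TPM, since the TPM of a gene here is 2.35 to 2.36 times its RPKM. Over the 46 lists, 406 of 414 recomputed counts of detected members stayed within 1.5 times. The 8 others were in lists of other cell types. The haematopoietic list went from 1 member to 2 with TPM, at 0.5 RPKM and at 1 CPM. The endothelial list went from 2 to 1 at 2 RPKM. The muscle list went from 0 to 1 (ACTA1) with TPM, at 0.5 RPKM, at 1 CPM and without replicate 3, and was 0 to 1 over the leave-one-out settings. The leading member held in 32 of 32 families with TMM scaling or TPM and in 27 when ordered by CPM, which ignores length (HOXA, GATA, TEAD, TIMP and Fanconi families changed). Without replicate 1, ERBB2 led EGFR, and without replicate 2, HOXA10 led HOXA9. Levels of the 72 hallmark genes above 1 RPKM moved by 0.925 to 1.11 times when a library was left out. Depth limits a statement of no count to 3 counts per library.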
